A study of Homo sapiens with 24 samples.

Results

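The genes described are the LIM homeodomain factors LHX2, LHX9 and ISL1, the LIM-only proteins LMO2 and LMO4, and the LIM-binding cofactors LDB1 and LDB2. They were chosen by name, as the rows of the gene count table whose Ensembl identifier maps to these symbols, and all 7 of 7 were found among 62757 genes. The counts come from bulk RNA of 24 libraries made from cells of the human embryonic stem cell line HES3, which carried reporters at NKX2-5 (GFP) and NR2F2 (mCherry) in every group and was differentiated toward heart muscle as embryoid bodies for at most 14 days with Wnt-modulating protocols. Each of 8 groups had 3 libraries. Cells labelled as CRISPR-Cas9 knockouts of LHX2, ZNF503 or ZNF711, or as targeted at TRAC, the T cell receptor alpha constant gene that served as the control, were grown in the AM condition, read here as atrial, with retinoic acid at day 4, or in the VM condition, read as ventricular, without it. The labels do not say whether a targeted line was a clone or a pool, nor whether the 3 libraries of a group came from separate differentiations, so p-values measure only the spread between these libraries.

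LIM homeodomain proteins bind DNA through a homeodomain and bind cofactors through their LIM domains. LDB1 and LDB2 carry no DNA-binding domain; each can dimerise and hold LIM domain proteins together at regulatory elements, while LIM-only proteins, which lack a homeodomain, compete for or bridge these contacts. In heart development ISL1 marks second heart field progenitors and, later, cells of the sinus node, and the LMO2 and LDB1 complex is best known from blood and endothelial precursors.

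The regulatory sequence of ISL1 is shown because ISL1 had the largest difference between conditions among the members called at over 5 CPM, and that of LMO4 because LMO4 moved the other way. Both are windows from 250 bases before to 50 after the start of the gene in RefSeq on GRCh38.p14, plus strand, 5′ to 3′, with capitals marking TGATAA and its variant starting with A (AGATAA), letters read by GATA factors. ISL1 is at chr5:51383198-51383497 and LMO4 at chr1:87328630-87328929, the first of 2 windows of that gene. The table held 7 windows for 5 of the 7 members.
ISL1: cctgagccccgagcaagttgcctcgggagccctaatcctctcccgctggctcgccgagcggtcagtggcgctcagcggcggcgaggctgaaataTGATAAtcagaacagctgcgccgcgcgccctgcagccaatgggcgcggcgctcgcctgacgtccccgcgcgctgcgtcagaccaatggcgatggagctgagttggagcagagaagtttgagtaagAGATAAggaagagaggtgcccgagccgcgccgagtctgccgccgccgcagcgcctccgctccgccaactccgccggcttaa
LMO4: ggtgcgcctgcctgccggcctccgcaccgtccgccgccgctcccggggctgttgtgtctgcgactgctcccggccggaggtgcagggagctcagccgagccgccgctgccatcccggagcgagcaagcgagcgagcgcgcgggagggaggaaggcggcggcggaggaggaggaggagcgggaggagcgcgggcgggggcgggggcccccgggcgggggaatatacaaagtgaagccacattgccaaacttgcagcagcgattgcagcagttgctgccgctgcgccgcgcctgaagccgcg
In the ISL1 window the first of these stood at base −156 from the start and the second at base −31. Of 35116 promoter windows of this length, 16.3% held either and 1.55% held both. In all 7 motifs were searched on both strands, and they were chosen after the sequences had been looked at. The 2 GATA motifs were found in 7.53% and 10.3% of all windows. A homeodomain motif spelled TAATTA was found in 4.84% of windows and another spelled TAATTG in 7.38%. The nuclear receptor half-site AGGTCA was found in 13.8%, the E-box spelled CAGCTG in 17.9% and the CCAAT box in 34.6%. ISL1 also held the E-box once and the CCAAT box at 2 places, the LHX2 and LDB1 windows held the CCAAT box once each, and the LMO4 and LHX9 windows held none of the 7. Windows were found for 5 of the 7 members. These matches describe letters only.

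Total counts ran from 2899786 to 7438010 per library, with a median of 5113566. Cardiomyocyte markers were present in every library, with the 9 listed genes summing to between 11650 and 42410 CPM (the count relative to the library's total after scaling by trimmed means). RNA of the targeted genes gave a limited check of the labels. LHX2 was barely counted anywhere. In AM, ZNF711 was 31.2 to 55.8 CPM in the ZNF711 libraries against 47.4 to 60.3 CPM in TRAC. In VM it was 25.9 to 33.9 against 34.6 to 48.0 CPM, without overlap, as for 10.1% of tested genes in either direction. ZNF503 was higher in the libraries labelled ZNF503 than in TRAC, at 255 to 367 against 103 to 123 CPM in AM. In VM it was 19.1 to 45.3 against 8.82 to 16.2 CPM. Results with ZNF503 in their name therefore refer to libraries labelled ZNF503.

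Levels can be compared between genes only per length, so CPM was divided by the kilobases of merged exons in GENCODE 29. On that scale LDB1 was the most abundant member, at 84.5 CPM per kb (SD 8.66, n = 12 libraries) in AM and 70.3 (SD 9.42, n = 12) in VM. The next levels in AM were 41.3 CPM per kb for ISL1 (SD 6.29), 15.3 for LMO4 (SD 1.6), 15.1 for LMO2 (SD 1.96) and 6.34 for LDB2 (SD 1.28). LMO4 and LMO2 were not separated by their spread in AM. In VM, LMO4 stood second at 23.6 CPM per kb (SD 6.33), ahead of ISL1 at 12.5 (SD 3.77), LMO2 at 8.57 (SD 1.48) and LDB2 at 5.05 (SD 0.515), and ISL1 and LMO2 differed by about the SD of ISL1. LHX2 was at 0.66 CPM per kb in AM (SD 0.692) and 1.21 in VM (SD 0.636). LHX9 (chr1:197911902-197935478, plus strand in GENCODE 29) had no count in AM and 3 counts in all of VM, 2 of them in VM ZNF503 replicate 3 and 1 in VM TRAC replicate 3, so it could not be tested. The plot of CPM by library shows the 6 other members.

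**Figure D1:**
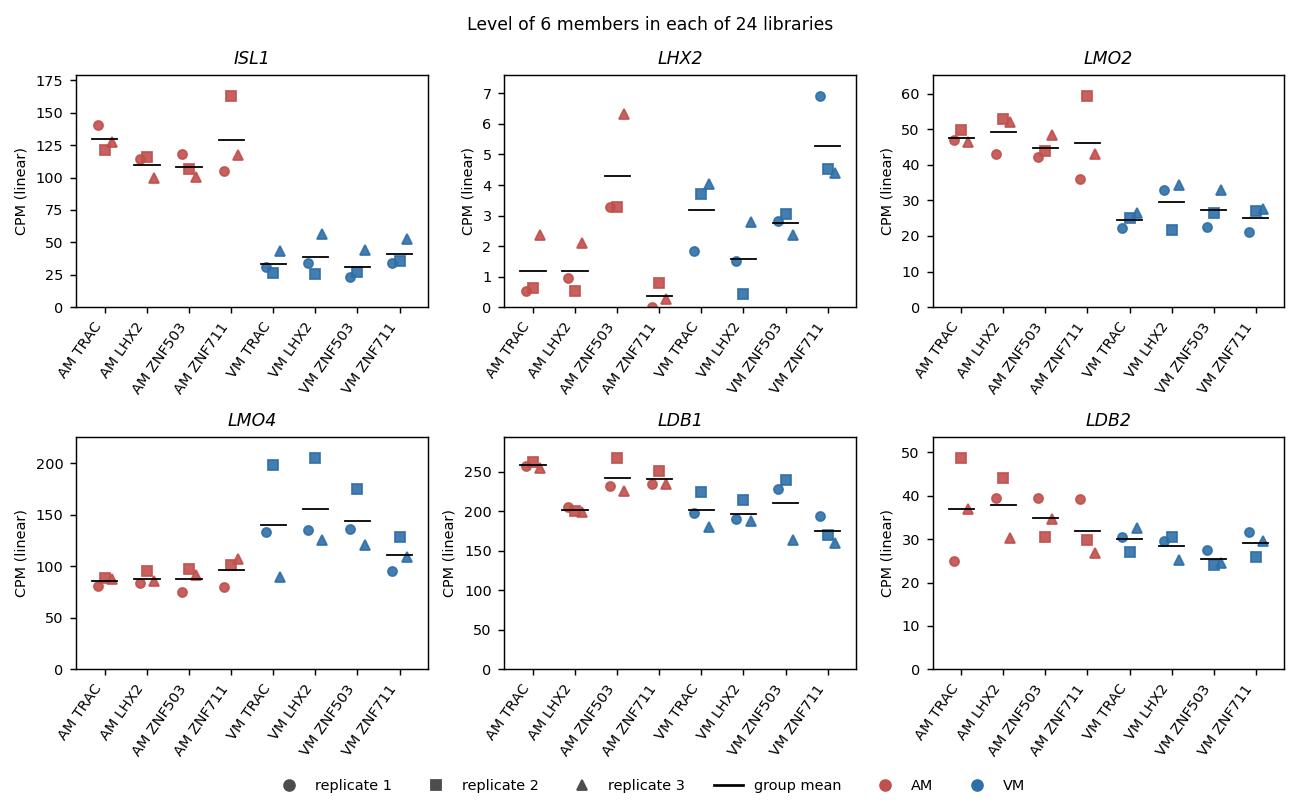
CPM (linear axis from 0) of 6 members in each of 24 libraries, by group, with AM in red, VM in blue, symbols for replicate numbers and lines for group means. ISL1 and LMO2 separate AM from VM in every library, LMO4 is higher and more spread in VM, and LHX2 stays below 7 CPM.

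The first question was whether the members differed between the retinoic acid condition and the other, averaged over the 4 targets. All 6 tested members were called, at a Benjamini-Hochberg adjusted p below 0.05 from edgeR's quasi-likelihood test, 4 higher in AM and 2 lower, where 34.5% of 17724 genes were called, 16.8% higher and 17.6% lower. With the replicate number as a block all 6 were called too, against 41.7% of genes, or 45% with a block within each condition. ISL1 and LMO2 were higher in every AM library than in every VM library, a separation in that direction seen in 2.69% of tested genes, and in 4.25% in either. In bulk RNA, more or fewer cells of a type and more or less RNA per cell cannot be told apart.

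ISL1, the LIM homeodomain factor of second heart field progenitors (chr5:51383391-51394738, plus strand in GENCODE 29), had a lowest, median and highest level of 99.4, 117 and 163 CPM over 12 AM libraries. In 12 VM libraries these were 23.0, 34.1 and 56.6 CPM. The ranges did not overlap, and the log2 fold change was 1.72 (SE 0.129, edgeR adjusted p = 2.46e-10), or 3.30-fold, higher in 12 of 12 AM libraries. In VM the libraries of number 3 were the highest of their group, at 43.5 (VM TRAC), 56.6 (VM LHX2), 43.8 (VM ZNF503) and 52.5 CPM (VM ZNF711). Without the 8 libraries of number 3, a setting added after seeing the data, the difference was 2.06.

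ISL1-DT, a divergent transcript whose gene begins 59 bases from ISL1 on the opposite strand, showed the same pattern at a lower level. It had 23.8, 33.6 and 48.8 CPM as lowest, median and highest in AM and 6.02, 9.02 and 15.2 CPM in VM, which do not overlap. Its log2 fold change was 1.93 (SE 0.143, edgeR adjusted p = 7.60e-11). Counting by strand is not stated in the sources used here, so reads of ISL1 and ISL1-DT close to their shared start may not be fully separated.

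LHX2, a LIM homeodomain factor of forebrain and limb development (chr9:124001670-124033301, plus strand), was lower in AM than in VM when averaged over the 4 targets. Its counts were 113 in all AM libraries and 189 in all VM libraries, and the lowest, median and highest levels were 0, 0.884 and 6.31 CPM in AM against 0.425, 2.94 and 6.92 in VM. The ranges overlapped widely. The log2 fold change was −1.23 (SE 0.367, edgeR adjusted p = 0.0105), and 3 counts equal 0.447 to 0.963 CPM per library, so several AM libraries lie at or near that floor. By target, the LHX2 difference was called only in ZNF711, at −3.77 (edgeR adjusted p = 0.00300). It was −1.44 in TRAC (0.208), −0.35 in the LHX2 libraries (0.857) and 0.64 in those labelled ZNF503 (0.685).

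LMO2, the LIM-only protein that joins LDB1 with TAL1 and GATA factors in blood and endothelial precursors (chr11:33858576-33892289, minus strand), had 36.0, 46.6 and 59.4 CPM as lowest, median and highest in AM. In VM these were 21.0, 26.4 and 34.2 CPM. The highest VM library lay below the lowest AM library, and the log2 fold change was 0.82 (SE 0.0984, edgeR adjusted p = 3.45e-07), a 1.76-fold difference.

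LMO4, a LIM-only protein known from neural and epithelial tissue (chr1:87328468-87348923, plus strand), was the member at over 5 CPM that was lower in AM. It had 75.1, 88.0 and 107 CPM as lowest, median and highest in AM and 90.0, 131 and 205 CPM in VM. The AM libraries lay in a narrow band, and only the lower VM libraries overlapped it. The log2 fold change was −0.61 (SE 0.109, edgeR adjusted p = 8.63e-05).

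LDB1, the main LIM-binding cofactor (chr10:102107560-102120453, minus strand), had 199.6, 235 and 268 CPM as lowest, median and highest in AM and 160 to 240.4 CPM in VM, with a median of 192. The ranges overlapped, and the log2 fold change of 0.26 (SE 0.0663, edgeR adjusted p = 0.00285) was a 1.20-fold difference. LDB2, its paralogue (chr4:16501541-16898809, minus strand), had 24.9, 35.9 and 48.7 CPM in AM and 24.1, 28.5 and 32.5 CPM in VM. Its difference was 0.33 (SE 0.104, edgeR adjusted p = 0.0160), with AM levels more spread (SD 7.18 CPM) than VM levels (SD 2.88 CPM).

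Markers of other cell types also differed between AM and VM, beside 16.8% of all tested genes called higher in AM and 17.6% lower. The 8 endoderm and hepatic markers (all 8 tested) summed to 158 to 1603 CPM in AM and 1080 to 18620 CPM in VM, and 4 of them were called lower in AM against 1 higher. Within VM the sum was 1080 to 2405 CPM in replicates 1 and 2 of the TRAC, LHX2 and ZNF503 groups, 6359 to 17490 in their replicate 3 and 6550 to 18620 in VM ZNF711. The cardiomyocyte sum within VM was highest where that one was lowest, at 36890 to 42410 CPM in replicates 1 and 2 of those VM groups against 11650 to 20790 in the other VM libraries. In AM the cardiomyocyte markers summed to 15140 to 30010 CPM, and of the 9, all tested, 4 were called lower in AM and none higher. In VM, LMO4 was 134, 198 and 90.0 CPM in VM TRAC, 136, 205 and 126 CPM in VM LHX2, 136, 175 and 120 CPM in VM ZNF503, and 96.0, 128 and 109 CPM in VM ZNF711 for replicates 1, 2 and 3. LMO4 was thus lowest, and ISL1 highest, in the VM libraries with the lower cardiomyocyte sum, but the gaps were narrow. For LMO4 the gap lay between 128 CPM in VM ZNF711 replicate 2 and 134 CPM in VM TRAC replicate 1. For ISL1 it lay between 34.4 CPM in VM ZNF711 replicate 1 and 33.8 CPM in VM LHX2 replicate 1. TTN and MYH6 made up most of the cardiomyocyte sum (VM TRAC means of 16940 and 9651 of 31860 CPM). Replicate 2 exceeded replicate 1 in LMO4 in each VM group, with a lower cardiomyocyte sum in replicate 2 of VM TRAC, VM LHX2 and VM ZNF711 and a higher one in VM ZNF503. Of 8 fibroblast and mesenchymal markers, 4 were called higher in AM and none lower, and they summed to 4141 to 7295 CPM in AM. In VM they summed to 1719 to 2473 CPM in replicates 1 and 2 of the TRAC, LHX2 and ZNF503 groups, 3292 to 4927 in their replicate 3 and 3928 to 4491 in VM ZNF711. Within VM the libraries with the higher sum also had the higher ISL1, with the narrow gap given above. COL1A1, COL1A2 and COL3A1 made up most of this sum (VM TRAC means of 1367, 660 and 714 of 2863 CPM). In VM ZNF711 these collagens, DCN and LUM had higher means than in the other VM groups. PDGFRA had a lower one there (64.1 against 88.2 to 93.8 CPM), and POSTN and TWIST1 lay within the range of the others. Of 8 epicardial markers 7 were tested, with 3 called higher in AM and 1 lower (sums of 76.5 to 167 CPM in AM and 36.8 to 100.1 CPM in VM). Of 8 neural markers 5 were tested, with 2 called higher and none lower. The neural list summed to 12.4 to 27.4 CPM in AM, 15.25 to 38.8 CPM in VM ZNF711 and 2.06 to 12.5 CPM in the other VM groups. The part of these markers in the ISL1 and LMO4 differences was not tested. Endothelial markers were higher in AM, with 6 of 10 called higher and none lower, and they summed to 587 to 1003 CPM in AM and 451 to 651 CPM in VM. Of 8 haematopoietic markers, 4 (PTPRC, HBZ, HBE1 and TYROBP) never had more than 3 counts, and the list summed to 18.9 to 44.2 CPM in AM and 14.5 to 21.5 CPM in VM. Whether these moved LMO2 was not tested.

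**Figure D2:**
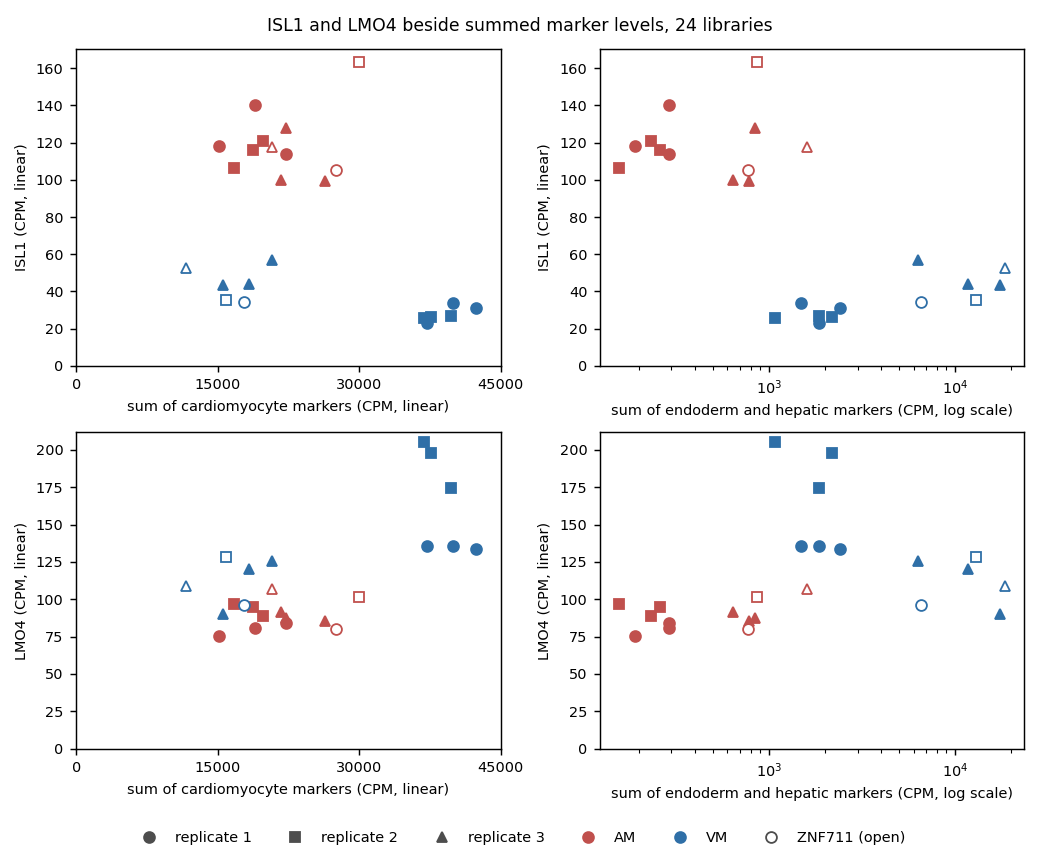
ISL1 (top) and LMO4 (bottom), in CPM, against the summed CPM of cardiomyocyte markers (left, linear axis) and of endoderm and hepatic markers (right, log axis), 1 point per library, AM in red, VM in blue, ZNF711 as open symbols. The VM libraries with cardiomyocyte sums of 36890 CPM or more hold the highest LMO4 and the lowest ISL1 values.

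Target by target, ISL1 and LMO2 were called higher in AM in each of the 4. In TRAC, 3 of 6 tested members were called, against 11.3% of genes. The LHX2 libraries had 3 of 6 members called, against 8.56% of genes, and 1 without AM LHX2 replicate 3 or VM LHX2 replicate 2. The libraries labelled ZNF503 had 3 of 6, against 8.86%, and 1 without replicate 2 or 3 of AM or replicate 1 or 2 of VM. ZNF711 had 4 of 6, against 13.2%. ISL1 was 140, 121 and 128 CPM in AM TRAC and 31.0, 26.2 and 43.5 CPM in VM TRAC. That gave a log2 fold change of 1.94 (SE 0.258, edgeR adjusted p = 1.49e-05), and the values of the other targets were between 1.50 (LHX2) and 1.79 (ZNF503). LMO2 was 47.0, 49.6 and 46.3 CPM in AM TRAC and 22.2, 25.2 and 26.4 CPM in VM TRAC, a log2 fold change of 0.95 (SE 0.196, edgeR adjusted p = 0.00172). In the other groups the LMO2 value was 0.74 (LHX2), 0.71 (ZNF503) or 0.87 (ZNF711). Leaving out 1 library ended the LMO2 call in 3 of 6 fits of LHX2 (AM replicates 2 and 3 and VM replicate 2, adjusted p up to 0.109) and in the same 4 of 6 fits of ZNF503 as above (up to 0.104).

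LMO4 was 80.8, 88.7 and 87.3 CPM in AM TRAC and 134, 198 and 90.0 CPM in VM TRAC, without overlap, as for 26.1% of tested genes in either direction. The log2 fold change was −0.71 (SE 0.217, edgeR adjusted p = 0.0332) and became −0.38 (adjusted p = 0.29) without VM TRAC replicate 2. For the LHX2 libraries it was −0.82 (edgeR adjusted p = 0.0178), for those labelled ZNF503 −0.71 (0.0397), and for ZNF711 −0.21 (0.598), not called. Leaving out 1 library ended the LMO4 call in 5 of 6 fits of TRAC and 5 of 6 of ZNF503, all but that without VM replicate 3, and in 3 of 6 of LHX2 (AM replicates 1 and 3 and VM replicate 2), with the smallest differences without replicate 2 of the VM group (−0.54 for ZNF503 and −0.56 for LHX2). The difference of ZNF711 from TRAC in this AM to VM effect was 0.51 (SE 0.307, edgeR adjusted p = 0.895), so that ZNF711 stood apart was not shown.

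LDB1 was 258, 262 and 255 CPM in AM TRAC and 198, 225 and 181 CPM in VM TRAC. The ranges did not overlap, as in 26.1% of tested genes, but the difference of 0.36 was not called (SE 0.132, edgeR adjusted p = 0.0810); with the replicate number as a block it was called (0.00973, against 19.4% of genes; 0.00261 with a block within each condition, against 23.7%). In ZNF711 it was 235, 251 and 235 CPM in AM and 194, 170.0 and 160 CPM in VM, a log2 fold change of 0.46 (SE 0.133, edgeR adjusted p = 0.0220). That call was lost in 3 of 6 fits with 1 library left out (AM ZNF711 replicate 2 and VM ZNF711 replicates 2 and 3, adjusted p up to 0.114). The LDB1 difference was 0.03 for LHX2 and 0.20 for ZNF503, neither called. LDB2 was called in no single target.

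The largest difference of any member in a single target was that of LHX2 in ZNF711. AM ZNF711 had 0, 4 and 1 counts (0, 0.805 and 0.260 CPM) and VM ZNF711 had 28, 24 and 21 counts (6.92, 4.51 and 4.39 CPM). Every VM library exceeded every AM library, as for 32.9% of tested genes in either direction, and the log2 fold change was −3.77 (SE 0.820, edgeR adjusted p = 0.00300). With 1 library left out it ran from −5.21 (without AM ZNF711 replicate 2, the library of 4 counts) to −3.19 and remained called in 6 of 6 fits. In ZNF503 the direction was the opposite, at 3.30, 3.30 and 6.31 CPM in AM against 2.82, 3.06 and 2.36 CPM in VM, where ranges did not overlap (23.5% of tested genes) but the difference of 0.64 was not called (adjusted p = 0.685). The difference in the AM to VM effect from TRAC was 2.08 for ZNF503 (SE 0.956, edgeR adjusted p = 1) and −2.33 for ZNF711 (SE 1.08, edgeR adjusted p = 0.765), so neither passed. No member was called in any of the 3 interactions, where 0%, 0% and 0.00564% of genes were (LHX2, ZNF503 and ZNF711), and the LHX2 values in ZNF503 and ZNF711 each had an unadjusted p under 0.05.

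**Figure D3:**
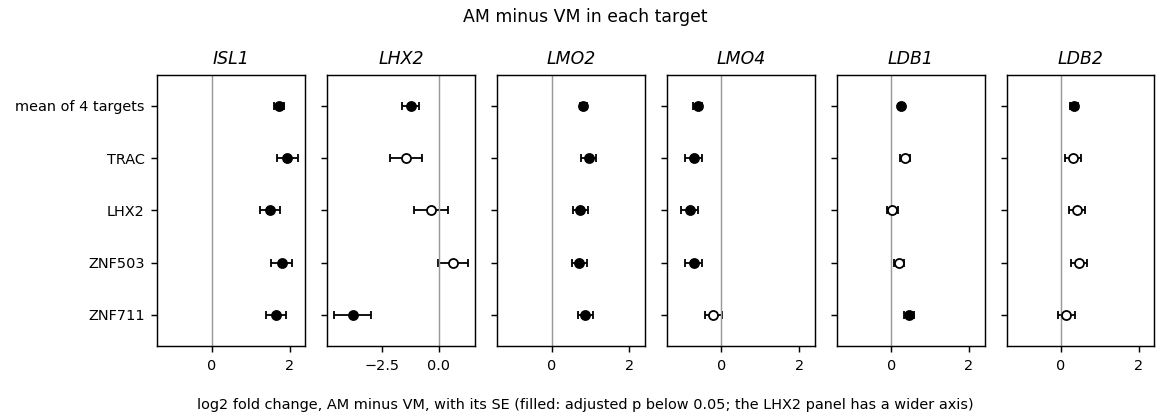
Log2 fold change, AM minus VM, with its SE, for 6 members in the mean of 4 targets and in each target, with filled symbols where called. ISL1 and LMO2 lie right of 0 in every comparison and LMO4 left of it, while LHX2 lies right of 0 in ZNF503 only.

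The second question was whether targeting LHX2, ZNF503 or ZNF711 moved the members within a condition. No tested member was called in any of 6 comparisons with TRAC by edgeR without a replicate block or by DESeq2. With a block within each condition, edgeR called LDB1 in AM LHX2 (adjusted p = 0.0236), where 3.11% of genes were called. Without a block, 2 of the 36 differences had an unadjusted p under 0.05, LDB1 in AM LHX2 and LHX2 in AM ZNF503. The comparisons share their TRAC libraries. In the fit without a block, the share of all genes called was 0% in AM LHX2, AM ZNF503, AM ZNF711, VM LHX2 and VM ZNF503 and 0.0169% in VM ZNF711. Few genes of any kind were thus called with that fit. The count of all genes in VM ZNF711 moved with the setting, from 3 to 402 with the replicate number as a block, 1480 with a block within each condition and 637 without VM TRAC replicate 3, and no member was called there in any of these.

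LDB1 was 206, 200.4 and 199.6 CPM in AM LHX2 and 258, 262 and 255 CPM in AM TRAC. The 3 AM LHX2 libraries lay below the 3 controls, as was true in 19% of tested genes in either direction, and the log2 difference was −0.36 (SE 0.133, edgeR adjusted p = 0.537). With the replicate number as a block the adjusted p was 0.0784 (1.13% of genes called), and with a block within each condition 0.0236, where 3.11% of genes were called. In VM the LDB1 levels were 190.1, 214 and 188 CPM in LHX2 and 198, 225 and 181 CPM in TRAC, a difference of −0.03 (SE 0.133). The AM minus VM difference of these effects was −0.33 (SE 0.188, edgeR adjusted p = 1). LDB1 was also lower than in AM TRAC in AM ZNF711, at 235, 251 and 235 CPM (−0.10, SE 0.132). In AM ZNF503 its levels of 233, 268 and 226 CPM overlapped those of AM TRAC (−0.09, SE 0.132). Neither was called.

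LHX2 itself was not called in the libraries labelled as its knockout, at 0.963, 0.517 and 2.09 CPM in AM LHX2 against 0.542, 0.624 and 2.37 CPM in AM TRAC, a log2 difference of 0.08 (SE 0.746). In VM LHX2 it was 1.50, 0.425 and 2.80 CPM against 1.85, 3.71 and 4.02 CPM in VM TRAC, a difference of −1.01 (SE 0.685, edgeR adjusted p = 1). At 2 to 27 counts per library these groups are too shallow for small changes to be detectable. In the libraries labelled ZNF503 in AM, LHX2 was 3.30, 3.30 and 6.31 CPM, above every AM TRAC library, as for 8.55% of tested genes in either direction, with a difference of 1.86 (SE 0.693, edgeR adjusted p = 1). VM ZNF711 was 6.92, 4.51 and 4.39 CPM, above the VM TRAC values of 1.85, 3.71 and 4.02 (ranges apart in 10.1% of genes), with a difference of 0.71 (SE 0.646, edgeR adjusted p = 0.770).

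ISL1 in AM was lower in the LHX2 and ZNF503 groups than in AM TRAC without a call. It was 114, 116 and 99.4 CPM in AM LHX2 and 118, 106 and 100.1 CPM in AM ZNF503, against 140, 121 and 128 CPM in AM TRAC. The ranges did not overlap, as for 19% of tested genes in AM LHX2 and 8.55% in AM ZNF503 in either direction, and the log2 differences were −0.24 (SE 0.246, edgeR adjusted p = 0.863) and −0.26 (SE 0.244, edgeR adjusted p = 1). LMO2 differences ran from −0.09 to 0.27, LMO4 from −0.34 to 0.17 and LDB2 from −0.25 to 0.03 over the 6 comparisons with TRAC, none of them called.

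**Figure D4:**
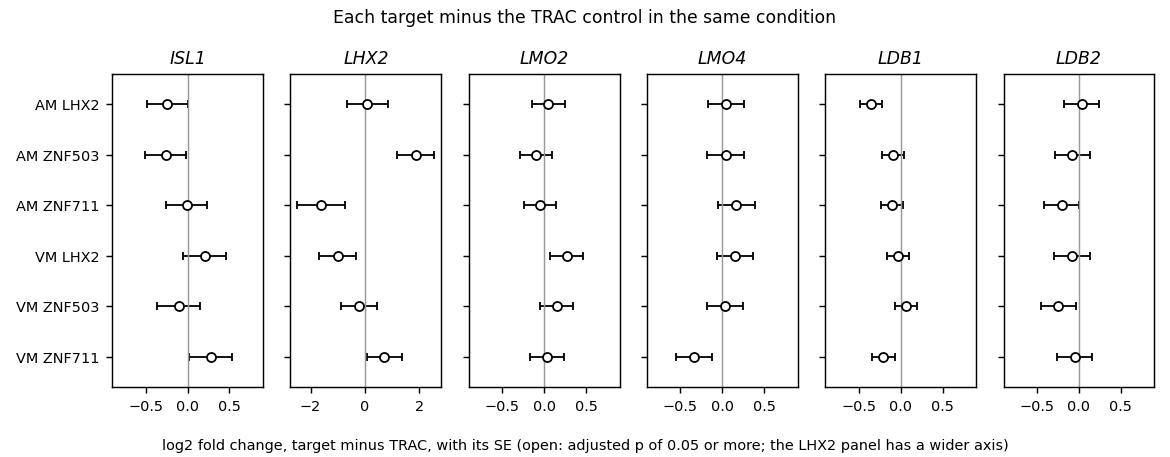
Log2 difference of each target from TRAC within AM or VM, with its SE, for 6 members. Every symbol is open, since no member had an adjusted p below 0.05 in this fit without a replicate block. The LDB1 value in AM LHX2 and the LHX2 value in AM ZNF503 stand farthest from 0 relative to their SE.

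Other genes of LIM complexes were described from lists chosen with earlier results of these data known, in AM against VM averaged over targets, beside a median log2 fold change of −0.01 over all tested genes. Of these tested genes 16.8% were called higher in AM and 17.6% lower. Of 4 LDB1-binding or LIM-complex regulators, 2 were called higher and 1 lower. SSBP3, a single-stranded DNA-binding protein that stabilises LDB1, was 180.4 against 134 CPM (log2 fold change 0.43, SE 0.072, edgeR adjusted p = 3.96e-05), and SSBP2 was 109 against 96.3 CPM (0.19, adjusted p = 0.0493). RLIM, the ubiquitin ligase that targets LDB proteins, was lower in AM, at 125 against 153 CPM (−0.30, SE 0.0699, edgeR adjusted p = 0.00160). The list's median was 0.14.

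Of the 10 partners of LMO2 and LDB1 in blood and endothelium, 9 were tested, with 5 called higher, 1 lower and a median of 0.28. ERG, an endothelial transcription factor, was 18.4 against 7.67 CPM (1.23, SE 0.157, edgeR adjusted p = 8.54e-07). The LMO2 partners TAL1 (10.4 against 5.21 CPM, 1.03) and LYL1 (5.67 against 2.71 CPM, 1.05) and the E proteins TCF3 (236 against 186 CPM, 0.35) and TCF12 (162 against 134 CPM, 0.28) were also called higher. CBFA2T3, a corepressor of this complex, was lower at 13.9 against 21.2 CPM (−0.61, SE 0.140, edgeR adjusted p = 0.00121). GATA1 had no count in any library, and GATA2, TCF4 and FLI1 were not called. LMO2 thus rose beside ERG, TAL1 and LYL1 in AM, which also carried more endothelial marker RNA, and the part of those cells was not tested.

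Of the 9 other LIM homeodomain genes, 4 passed the filter, at under 3 CPM, with LHX6 called higher (1.92 against 0.543 CPM, 1.75, SE 0.526, edgeR adjusted p = 0.0113) and LHX5 (0.752 against 2.98 CPM, −1.45, adjusted p = 0.0469) and LMX1B (0.604 against 2.11 CPM, −1.41, adjusted p = 0.0488) lower. VM ZNF711 was the highest group for both, with a mean of 8.85 CPM for LHX5 against 0.930 to 1.1 CPM in the other VM groups, and 5.24 CPM for LMX1B against 0.718 to 1.52 CPM. The AM group means were 0.279 to 1.38 CPM for LHX5 and 0.361 to 0.909 CPM for LMX1B. Both may have passed the filter only through VM ZNF711. Their averaged calls therefore show no difference for the other targets. In ZNF503, LHX5 was higher in AM (1.38 against 1.06 CPM). By target, 2 genes of the list were called lower in ZNF711 and none in TRAC, LHX2 or ZNF503. The summed level of this list was 19.4 to 24.8 CPM in VM ZNF711 and 2.48 to 13.5 CPM in the other groups. The LIM-only genes LMO1 and LMO3 were not called.

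Genes that share ISL1's setting split. Of 8 second heart field genes, 3 were called higher in AM and 3 lower, with a median of 0.23. MEF2C, a muscle transcription factor, was 263 against 137 CPM (0.95), GATA4 328 against 229.8 CPM (0.53) and EYA1 15.6 against 11.1 CPM (0.57). The lower ones were FGF8 (1.70 against 4.95 CPM, −1.47), FGF10 (37.1 against 66.3 CPM, −0.82) and NKX2-5 (114 against 164 CPM, −0.51). Of 5 sinus node genes, 3 were called higher, with a median of 1.88. SHOX2, a transcription factor of the sinus node, was 171 against 1.02 CPM (7.81, SE 0.373, edgeR adjusted p = 1.11e-11), BMP4 was 152 against 28.4 CPM (2.39) and TBX18 was 44.5 against 13.0 CPM (1.88). TBX3 and HCN4, 59.8 and 370 CPM in AM, were not called.

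**Figure D5:**
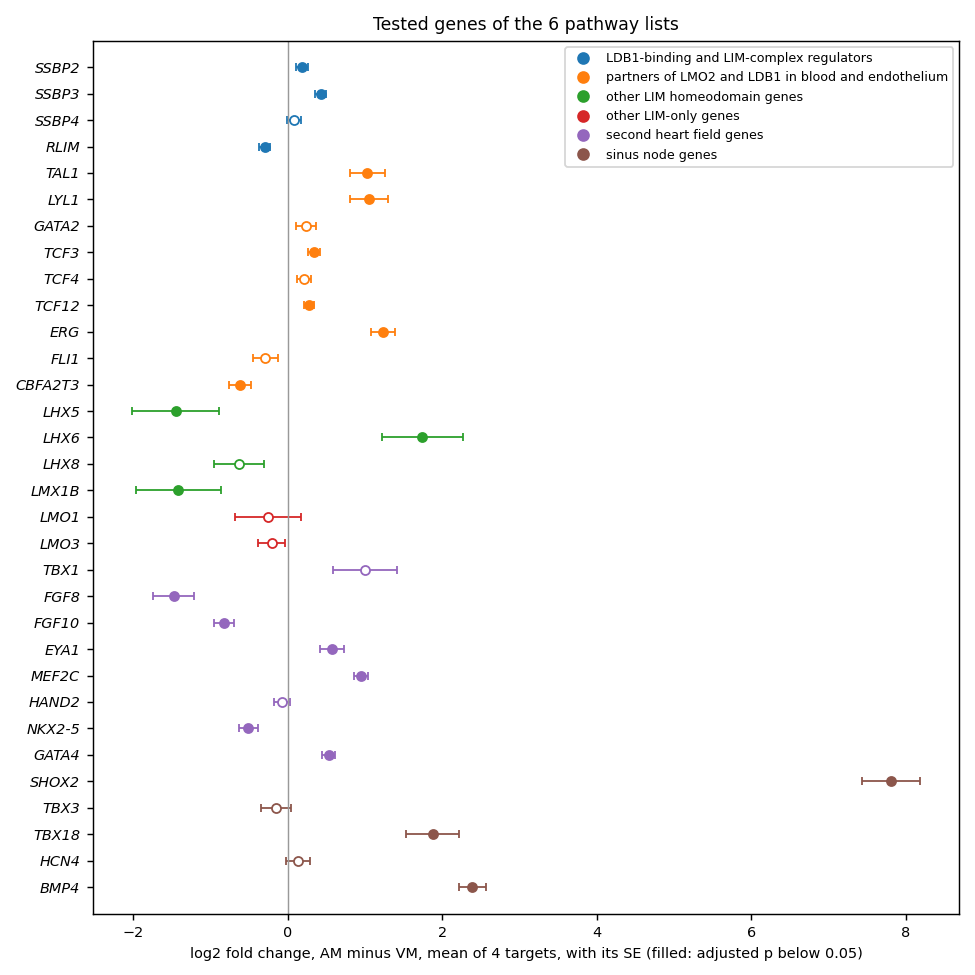
Log2 fold change, AM minus VM averaged over 4 targets, with its SE, for the tested genes of 6 lists, coloured by list, with filled symbols where called. SHOX2 has the largest value, 7.81, and the second heart field genes lie on both sides of 0.

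Over 24 libraries, after removing the mean of each condition, the members whose deviations from it were most alike were ISL1 and LMO2 (Pearson r = 0.583), and LMO4 and LDB1 (0.516), while ISL1 and LMO4 had −0.513. These are descriptions over libraries that share groups and marker content, with no test. Within conditions ISL1 and LMO2 had 0.456 in AM and 0.648 in VM. ISL1 and LMO4 had r = −0.65 in VM and 0.172 in AM, and LMO4 and LDB1 had 0.671 in VM and 0.112 in AM. ISL1 and LDB1 had −0.82 in VM and 0.456 in AM. The genes most like each member, chosen as the 3 highest Pearson r of about 12833 genes at 5 CPM or more, were FXYD6 (0.916), NREP (0.901) and SMTNL2 (0.887) for LMO4, and CIRBP (0.905), TRIOBP (0.898) and CPXM1 (0.873) for LDB1. For ISL1 they were DDAH1 (0.816), GPR37 (0.815) and KLF5 (0.814). For LMO2 they were ENSG00000230074 (0.684), CAVIN1 (0.677) and SPTY2D1 (0.663), for LDB2 BCL6B (0.655), MED7 (0.651) and CAPS (0.636), and for LHX2 LINC02972 (0.653), DKK1 (0.639) and NOL6 (0.631). Without the 8 libraries of number 3, LMO4 kept FXYD6 and NREP in its top 3, LDB2 kept MED7, LHX2 kept NOL6, and ISL1, LMO2 and LDB1 kept none. Some of these values came mainly from 1 condition. LHX2 and DKK1 had r = 0.838 in AM and 0.13 in VM, and LMO4 and NREP had 0.328 in AM and 0.961 in VM. Others were alike in both, such as LDB1 and CIRBP (0.889 in AM and 0.916 in VM). Maxima over so many genes are high by selection.

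The genes next to members did not all follow them. DENND1A, 71518 bases from LHX2, was lower in AM (54.2 against 80.6 CPM, −0.57, edgeR adjusted p = 6.82e-06). NEK6, 224305 bases from LHX2 on its other side, was lower too (60.9 against 84.8 CPM, −0.47, adjusted p = 0.00110). NEK7, 221485 bases from LHX9, was also lower (36.0 against 47.8 CPM, −0.41, adjusted p = 0.00777). Of all tested genes 17.6% were called lower in AM. CAPRIN1, 159394 bases from LMO2, and PPRC1, 12541 bases from LDB1, were not called. Antisense genes that overlap LHX2, LMO2 and LDB2 had 1, 0 and 11 counts in all libraries.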

How the data were processed

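The authors deposited 1 table of raw gene counts for 24 libraries, per the file's whole-number values; GRCh38 and STAR are named in the submitters' processing notes, while counting, strand and annotation are not given in the sources used here. The labels conflict on RNA selection (polyA against ribosomal depletion). Every count column matched 1 sample. Genes passing filterByExpr (17724) were tested with edgeR 4.0.16 (R 4.3.3, TMM scaling, robust quasi-likelihood, 1 mean per group over all 24 libraries), with Benjamini-Hochberg adjustment over these genes in each of 14 comparisons; SE is the log2 fold change over the root of F. LHX9 did not pass. The biological coefficient of variation was 25%. Alternatives, with DESeq2 1.42.0 among them, are in the closing section. A test on simulated data of AM TRAC against VM TRAC over 17177 genes recovered 41 of 100 genes changed by log2 1 and 69 of 100 changed by log2 2, with 5 false calls. The tests reported have no replicate block. The check of the replicate numbers found that they pair the libraries (deviations from group means correlated by over 0.1 in 30 of 30 pairs, 0.125 to 0.786, 11428 genes), and fits with the number as a block are alternatives. No 2 libraries of a group agreed within sampling noise. Per-length levels use GENCODE 29 exons, which may differ from the counted annotation. Floors of 3 counts cover counting error only.

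Members and lists were chosen with earlier results of these data known. Named genes were the members, the called genes of 6 pathway lists, overlapping or neighbouring genes, and the 3 genes most like each member. Marker lists are described by sums and counts of calls. RUNX1, TTN, MYH6, the fibroblast and mesenchymal genes and the haematopoietic genes at the floor are also named. A few genes of the lists are not reported here, and list counts, medians and sums leave them out.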

Additional observations from a re-analysis of the deposited data

Results flagged for a closer look

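LHX2 had AM and VM ranges that did not overlap in ZNF503 (as for 23.5% of tested genes in either direction) and in ZNF711 (32.9%) and lay in opposite directions, with a log2 fold change, AM minus VM, of 0.64 in the libraries labelled ZNF503 (18 to 34 counts in AM against 11 to 15 in VM) and −3.77 in ZNF711 (0 to 4 against 21 to 28). The difference between these 2 targets was not tested; only the difference of each from TRAC was.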

How the results depend on the processing

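The alternatives were DESeq2, relative log expression or library size alone as the scaling, fitting only the groups compared, filtering at 1 CPM in 3 libraries or not at all, a replicate block, a block within condition, leaving out each library and, added after seeing the data, leaving out the 8 libraries of number 3. The 6 members called in AM against VM over 4 targets were called in every one that could be run. With all or 16 libraries, 726 of the member values kept direction and call, 12 reversed, 6 lost a call and 3 gained one; with 1 library left out, 644 kept both, 53 reversed and 23 lost a call. No scaling moved the median of all genes by over 0.1. With the replicate block, LDB1 in AM TRAC against VM TRAC was called (adjusted p 0.00973; 0.00261 within condition), and with the block within condition 1 member, LDB1, was called in AM LHX2 against AM TRAC (0.0236); the blocks changed no other call. LDB1 in ZNF711 lost its call with no filter (0.0916) and without number 3 (0.0995), as did LMO2 in LHX2 (0.0668) and ZNF503 (0.062) without number 3, LMO4 in TRAC with only the groups compared (0.126) and LMO4 in ZNF503 with library size alone (0.0741). For all genes, AM LHX2 against AM TRAC gave 0 calls, but 201 with the block, 552 within condition, 97 with no filter, 167 with only the groups compared and 22 with DESeq2. VM ZNF711 against VM TRAC gave 3, but 402, 1480, 495, 0 and 76 in that order, 897 without number 3 and 1 to 637 with 1 library left out. The ZNF711 interaction gave 1, but 5 with the block, 450 within condition, 209 with no filter, 10 with DESeq2 and 291 without number 3, and 28 without VM TRAC replicate 3. AM ZNF711 against AM TRAC gave 0, but 7 with the block, 94 within condition, 99 with no filter, 17 with only the groups compared and 42 without number 3, and VM LHX2 against VM TRAC 0, but 136 with no filter. AM ZNF503 against AM TRAC gave 0, but 16 with no filter and 10 within condition, and the LHX2 interaction 0, but 40 with no filter. No other count of a comparison with TRAC or an interaction that moved this far exceeded 9. In AM against VM the TRAC count of 2003 became 3430 with the block, 4204 within condition, 995 with only the groups compared and as low as 1147 with 1 library left out. For the LHX2 libraries 1517 became 2781, 3459 within condition and as low as 902; for those labelled ZNF503, 1571 became 2642, 3357 and as low as 1031; for ZNF711, 2345 became 4150, 4923 and as low as 1331. Values that reversed were LDB2 −0.00082 in AM LHX2 against AM TRAC and LMO4 −0.0034 for the ZNF503 interaction with no filter, LMO4 there −0.0088 with the filter at 1 CPM, −0.023 with the replicate block and −0.039 within condition; and without number 3, against TRAC, ISL1 0.030 in AM ZNF711, LDB2 0.057 in VM LHX2 and 0.011 in VM ZNF711, LHX2 0.085 in VM ZNF503, LMO2 −0.013 in AM LHX2, LMO4 −0.090 in VM ZNF503 and LMO4 0.039 for the LHX2 interaction. The cause was not tested. With 1 library left out, members called ran from 1 to 3 in AM against VM of LHX2 and of ZNF503. Among uncalled values that reversed in such fits, ISL1 ran from −0.23 to 0.12 in AM ZNF711 against AM TRAC, −0.39 to 0.16 for the ZNF503 interaction, −0.17 to 0.43 in VM LHX2 against VM TRAC and from −0.42 to 0.13 in VM ZNF503 against VM TRAC. LDB1 ran from −0.11 to 0.053 in VM LHX2 against VM TRAC and from −0.037 to 0.23 in VM ZNF503 against VM TRAC. LDB2 ran from −0.19 to 0.28 in AM LHX2 against AM TRAC, −0.30 to 0.17 in AM ZNF503 against AM TRAC, −0.42 to 0.048 in AM ZNF711 against AM TRAC, −0.034 to 0.25 in AM ZNF711 against VM ZNF711, −0.10 to 0.37 for the LHX2 interaction, −0.051 to 0.42 for the ZNF503 interaction, −0.37 to 0.10 for the ZNF711 interaction and from −0.14 to 0.017 in VM ZNF711 against VM TRAC. LHX2 ran from −0.67 to 1.05 in AM LHX2 against AM TRAC and from −1.10 to 0.33 in AM LHX2 against VM LHX2. LMO2 ran from −0.00082 to 0.14 in AM LHX2 against AM TRAC, −0.28 to 0.11 in AM ZNF711 against AM TRAC, −0.30 to 0.070 for the ZNF711 interaction, −0.00085 to 0.26 in VM ZNF503 against VM TRAC and from −0.043 to 0.12 in VM ZNF711 against VM TRAC. LMO4 ran from −0.018 to 0.076 in AM LHX2 against AM TRAC, −0.040 to 0.14 in AM ZNF503 against AM TRAC, −0.43 to 0.15 for the LHX2 interaction, −0.33 to 0.24 for the ZNF503 interaction, −0.11 to 0.47 in VM LHX2 against VM TRAC and from −0.21 to 0.37 in VM ZNF503 against VM TRAC. LHX2 and LHX9 are limited by depth.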
